A study of Oryctolagus cuniculus with 8 samples.

Results

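The genes described here encode proteins of the mitochondrial ribosome and of the machinery that imports proteins into mitochondria. Membership followed the name: 71 of 20922 gene entries had a name that occurred once and belonged to the MRPL, MRPS, TIMM or TOMM series. The set itself was chosen with earlier results of these data known. Of these, 32 were MRPL genes, 20 MRPS genes, 11 TIMM genes and 8 TOMM genes. RNA-seq reads were counted in 8 libraries of total RNA from limbal epithelial cells of New Zealand white rabbits. The limbus is the rim of the cornea that holds its epithelial stem cells. In 4 libraries the cells were side population (SP) cells, which keep little of a Hoechst dye because they pump it out, and in the other 4 they were the remaining non-SP (NSP) cells. No drug, genotype or age sets the groups apart in the labels, and which animals gave which library is not stated, so p-values measure only the spread between these libraries, which may be technical.

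Mitochondria keep a small genome whose messages encode subunits of the respiratory chain. The mitochondrial ribosome translates them. Its large (MRPL) and small (MRPS) subunit proteins are encoded in the nucleus, made in the cytosol and imported. Import runs through the TOM complex of the outer membrane, from which precursors with a presequence pass to the TIM23 complex and metabolite carriers, escorted by small TIMM chaperones, pass to the TIM22 complex of the inner membrane. The gene names follow these complexes with exceptions: the products of MRPS30 and MRPS18A sit in the large subunit, and that of MRPS36 is a part of the ketoglutarate dehydrogenase complex.

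The libraries held 15553295 to 18931836 exon reads in SP and 20445565 to 23529101 in NSP. The deposited columns name the group only, so libraries are numbered in column order within a group. The labels call both groups epithelial, but the marker genes of other cells differed widely. The summed level of 11 epithelial markers was 1008 to 7076 CPM (read counts set to a common library total) in SP and 27607 to 47466 CPM in NSP, with 11 of 11 lower in SP. The summed level of 5 T and NK cell markers was 1605 to 6783 CPM in SP and 1.06 to 2.83 CPM in NSP, with CD8B at 0 in every NSP library. Markers of endothelium (1006 to 9476 against 0.387 to 1.89 CPM), melanocytes (1829 to 12913 against 90.6 to 258 CPM), stroma (213 to 384 against 36.8 to 53.8 CPM, COL3A1 and LUM at 0 in NSP) and myeloid cells (1110 to 2391 against 19.7 to 30.4 CPM) were all higher in SP as well, with all 6, 6, 6 and 5 tested genes called. The part of these cells in each result below was not tested. In such bulk libraries a change in the cells present and a change in the RNA of each cell cannot be told apart.

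Most mitochondrial ribosome and import genes did not pass the test between SP and NSP cells. Of the 71 genes, 69 passed the filter on low reads, and 6 of them were higher and 2 lower in SP at a limma-voom adjusted p of at most 0.05 over all tested genes. That was 11.6% of the tested members, beside 30.7% of all 10012 tested genes, of which 17.7% were higher and 13.0% lower in SP. By name series the share called was 6.45% (MRPL), 10.5% (MRPS), 18.2% (TIMM) and 25% (TOMM). The 6 higher genes were MRPL19, MRPL44, MRPS22, MRPS24, TIMM22 and TOMM70A, and the 2 lower genes were TIMM17B and TOMM7. The median log2 fold change (SP over NSP) was 0.19 over the members, with quartiles of -0.12 and 0.41, beside 0.12 over all tested genes, with quartiles of -0.62 and 0.88. The member values ran between -0.79 for TOMM7 and 1.55 for MRPL19. Above 0 were 41 of 69 members, beside 5512 of all 10012 tested genes. The 95% interval of the log2 fold change lay within 1 of 0 on both sides for 41 of 69 members (59.4%), beside 1843 of all tested genes (18.4%). The levels of the groups did not overlap for 10 members, or 14.5%, beside 32.8% of all tested genes: MRPL10, MRPL19, MRPL51, MRPS16, MRPS22, MRPS23, MRPS24, TIMM22, TIMM8A and TOMM7. The members summed to 2776, 2899, 3338 and 3670 CPM in the SP libraries and to 2862, 2746, 2781 and 3019 CPM in the NSP libraries, so the groups overlapped.

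**Figure D1:**
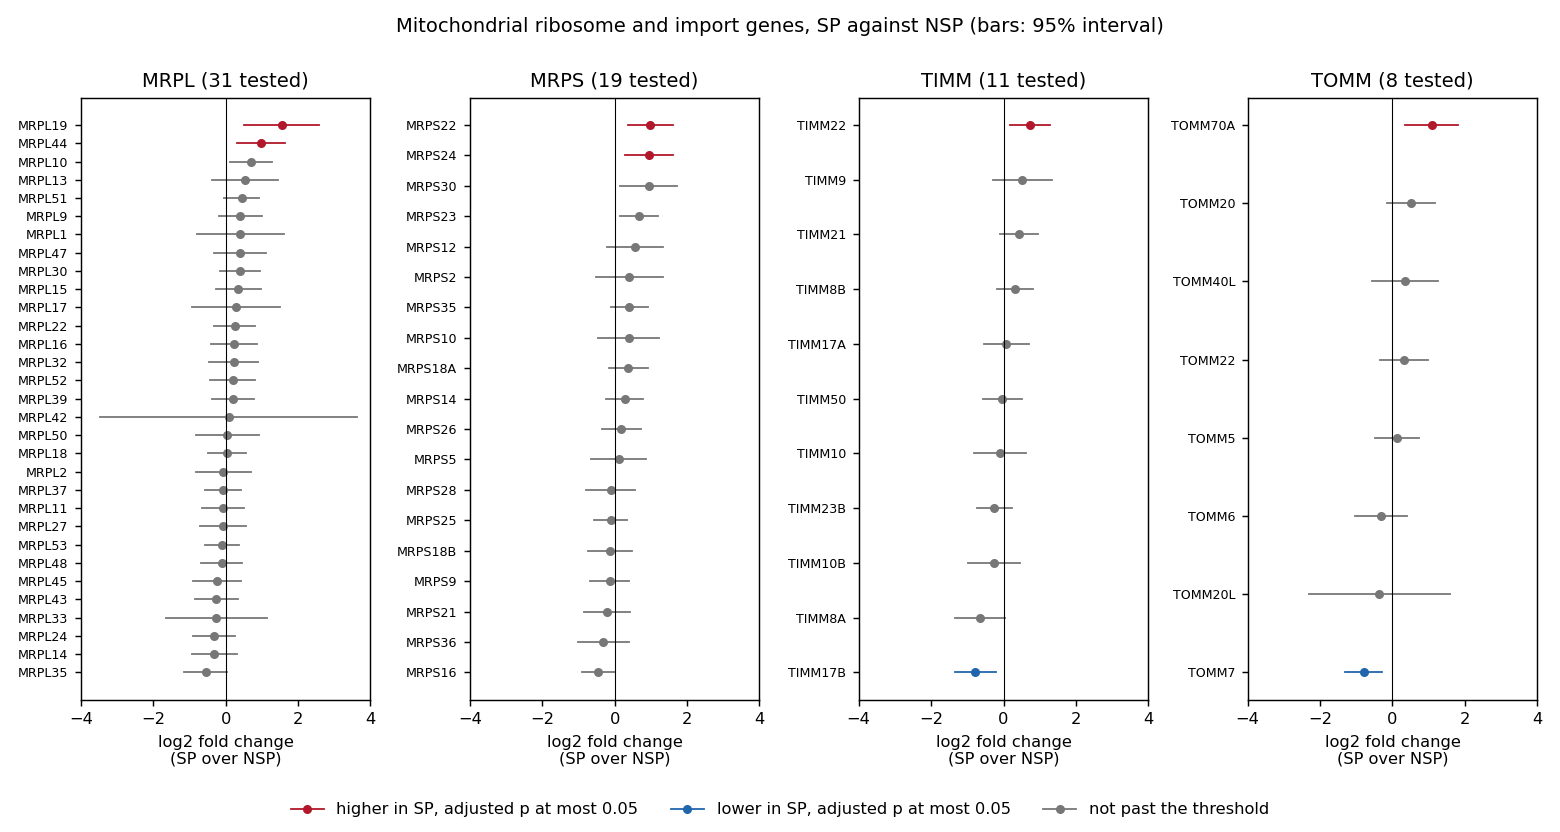
Log2 fold change (SP over NSP) of each of the 69 tested members, in 1 panel per name series, with bars for the 95% interval and colours for the limma-voom call. The 6 genes higher in SP lie between 0.74 (TIMM22) and 1.55 (MRPL19), the 2 lower ones at -0.78 (TIMM17B) and -0.79 (TOMM7), and most other intervals include 0.

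The number of called members depended on single libraries and on the scaling. Leaving out SP library 3 or NSP library 2 left 0 called members by limma-voom, while 11 and 9 members had an unadjusted p under 0.05. Of all tested genes, 23.9% and 22.9% were called in these fits. The member calls were 2 higher and 0 lower without SP library 1, 4 and 0 without SP library 2, 7 and 6 without SP library 4, 1 and 1 without NSP library 1, 4 and 1 without NSP library 3, and 1 and 0 without NSP library 4. In the same order, 29.9%, 26.3%, 37.5%, 24%, 26.1% and 22.1% of all tested genes were called. With upper-quartile scaling, 0 members were higher and 3 lower (MRPS16, TIMM17B and TOMM7), and 10 members had an unadjusted p under 0.05. Voom quality weights gave 9 higher and 3 lower members, or 17.4%, beside 39.4% of all tested genes. Upper-quartile scaling gave 1439 higher and 1627 lower genes over the whole table, beside 1774 and 1301 with the scaling used here, and moved the median of all tested genes to -0.06. None of the 8 called members changed sign in any of the 15 alternative fits.

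**Figure D2:**
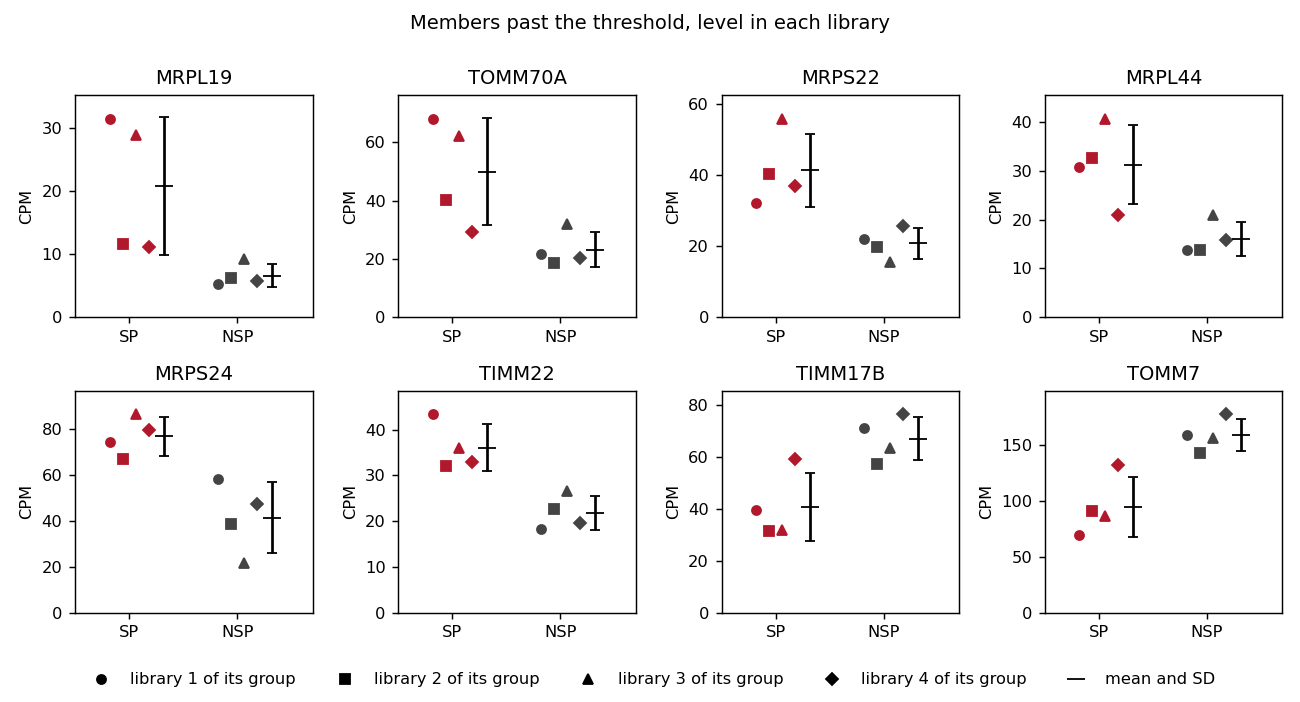
Scaled level in CPM of the 8 called members in each library, SP left and NSP right, with the mean and SD of each group (n = 4) beside the points. MRPL19, MRPS22, MRPS24 and TIMM22 are higher in every SP library than in any NSP library, TOMM7 is lower in every SP library, and in MRPL44, TOMM70A and TIMM17B library 4 of SP reaches into the NSP range.

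MRPL genes gave 2 calls among 31 tested, both higher in SP. MRPL19, a protein of the large subunit, had 31.4, 11.5, 28.9 and 11.1 CPM in the SP libraries and 5.22, 6.18, 9.18 and 5.70 CPM in the NSP libraries. SP libraries 1 and 3 stood well above the others, and the groups did not overlap. The log2 fold change was 1.55 ± 0.47 (SE; limma-voom adjusted p = 0.0303), and the adjusted p was above 0.05, at up to 0.106, when SP library 1 or 3 or NSP library 1, 2 or 4 was left out. MRPL44, a large subunit protein mutated in an inherited human mitochondrial disease, had 30.8, 32.7, 40.7 and 20.9 CPM in SP and 13.8, 13.7, 21.0 and 15.8 CPM in NSP. SP library 4 and NSP library 3 were at almost the same level. Its log2 fold change was 0.97 ± 0.30 (adjusted p = 0.0322), and the adjusted p was above 0.05, at up to 0.146, without any 1 of SP libraries 1, 2 and 3 or NSP libraries 1, 2 and 4.

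The other 29 tested MRPL genes did not pass. MRPL10, which sits at the stalk of the subunit, had 58.7, 49.4, 55.3 and 81.4 CPM in SP and 44.7, 33.8, 26.5 and 44.6 CPM in NSP. Its groups did not overlap, with a log2 fold change of 0.70 ± 0.26 and an adjusted p of 0.0673, or 0.0475 with library totals alone. MRPL51 was at 35.1 to 45.6 CPM in SP and 28.2 to 34.0 CPM in NSP, also without overlap (0.44 ± 0.22; adjusted p = 0.159). MRPL35 had the lowest log2 fold change of the series, -0.55 ± 0.27 (adjusted p = 0.151). MRPL17 had the highest level of the MRPL genes, also per kb of exon, with 131, 287, 81.3 and 527 CPM in SP and 155, 217, 85.6 and 251 CPM in NSP. Its libraries differed more within a group than the groups did, and the log2 fold change was 0.29 ± 0.55. MRPL42, a gene with few reads, had 23.7, 4.19, 7.21 and 0 CPM in SP and 1.44, 3.00, 9.03 and 0.966 CPM in NSP, with an interval between -3.48 and 3.63. MRPL33 was at 25.9, 14.9, 16.6 and 1.95 CPM in SP and at 12.1 to 15.4 CPM in NSP, so that SP library 4 alone lay far below the rest. At the other extreme MRPL53 held between 31.0 and 34.9 CPM in SP and between 33.4 and 36.6 CPM in NSP, with an interval between -0.57 and 0.37. MRPL57 had 0 to 5 reads in each library and was not tested.

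MRPS genes likewise gave 2 calls among 19 tested, both higher in SP. MRPS22, a small subunit protein also mutated in human mitochondrial disease, had 32.1, 40.2, 55.7 and 36.8 CPM in SP and 22.1, 19.8, 15.4 and 25.7 CPM in NSP. Every SP library was above every NSP library. The log2 fold change was 0.98 ± 0.28 (adjusted p = 0.0227), and the adjusted p was above 0.05, at up to 0.0815, without SP library 3 or NSP library 1, 2 or 3. MRPS24 had 74.3, 66.97, 86.5 and 79.9 CPM in SP and 58.2, 38.6, 21.9 and 47.5 CPM in NSP. The SP libraries lay close together and NSP library 3 far below the rest of its group. Its log2 fold change was 0.96 ± 0.30 (adjusted p = 0.0326), and the adjusted p was above 0.05, at up to 0.0803, without SP library 3 or 4 or NSP library 2, 3 or 4, and at up to 0.0753 with median-ratio or upper-quartile scaling.

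MRPS23 and MRPS30 came next in the MRPS series. MRPS23 had 55.7, 53.5, 64.7 and 38.8 CPM in SP and 35.4, 34.4, 28.1 and 34.3 CPM in NSP, and its log2 fold change of 0.68 ± 0.24 had an adjusted p of 0.0540. MRPS30, whose product is a large subunit protein despite its name, had 44.5, 22.0, 30.9 and 19.4 CPM in SP and 12.3, 13.1, 22.6 and 12.7 CPM in NSP (0.94 ± 0.35; adjusted p = 0.0682). NSP library 3 was far above the other NSP libraries in MRPS30 and below them in MRPS23. Both genes were called without SP library 4 (adjusted p = 0.0238 for MRPS23 and 0.0437 for MRPS30) and with quality weights (0.0161 and 0.0147). MRPS16 was at 41.7 to 53.4 CPM in SP and at 60.8 to 76.8 CPM in NSP, the only MRPS gene without overlap that was lower in SP (-0.45 ± 0.21; adjusted p = 0.133). MRPS16 was called without SP library 4 (-0.63; adjusted p = 0.0329) and with upper-quartile factors (-0.63; adjusted p = 0.0402). MRPS25 had the highest CPM of the series before any correction for length, with 83.7, 110, 117 and 119.2 CPM in SP and 106.1, 118.6, 123.1 and 111.6 CPM in NSP, and its interval lay between -0.56 and 0.34. Its exons span 6716 bases, and per kb of exon its level was 16.0 CPM in SP against 17.1 CPM in NSP, while MRPS14 was the highest of the series at 143.4 CPM per kb in SP and 120.0 CPM per kb in NSP. MRPS36 was at 32.9, 45.7, 42.6 and 16.2 CPM in SP and at 37.7 to 43.8 CPM in NSP (-0.31 ± 0.32). MRPS6 had 0 to 3 reads in each library and was not tested.

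Among the 8 TOMM genes, 1 was higher and 1 lower in SP. TOMM70A encodes the receptor that binds precursors of metabolite carriers at the outer membrane. It had 68.1, 40.3, 62.3 and 29.3 CPM in SP and 21.8, 18.5, 32.2 and 20.4 CPM in NSP. SP library 4 was below NSP library 3, and the other SP libraries were above all of NSP. The log2 fold change was 1.08 ± 0.33 (adjusted p = 0.0316), and the adjusted p was above 0.05, at up to 0.116, without SP library 1 or 3 or NSP library 1, 2 or 4. TOMM7, a small subunit of the TOM complex that also takes part in the PINK1 pathway of mitochondrial quality control, had 69.1, 90.5, 86.2 and 131 CPM in SP and 158, 143, 156 and 177 CPM in NSP. Every SP library was below every NSP library. Its log2 fold change was -0.79 ± 0.23 (adjusted p = 0.0263), and the adjusted p was above 0.05, at up to 0.0825, without SP library 1, 2 or 3 or NSP library 2 or 4.

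The remaining TOMM members did not pass. TOMM40 was not among the members, so the TOM complex was covered only in part. TOMM20, the receptor for presequences, had 155, 122, 187 and 68.4 CPM in SP and 90.3, 81.3, 92.5 and 86.8 CPM in NSP. SP library 4 lay below the NSP range and the other SP libraries above it (0.51 ± 0.30; adjusted p = 0.219). It was called without SP library 4 (0.66; adjusted p = 0.0207) and with quality weights (0.62; adjusted p = 0.0385). TOMM22, the central receptor, was at 53.6 to 66.6 CPM in SP and at 25.8 to 66.4 CPM in NSP (0.32 ± 0.30). The small subunits TOMM5 (0.12 ± 0.28) and TOMM6 (-0.32 ± 0.32) and TOMM40L, a paralogue of the TOM pore protein (0.35 ± 0.41) had intervals that included 0. TOMM20L was near the limit of detection, at 0.109 to 1.60 CPM in SP and 0.554 to 0.997 CPM in NSP.

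Of the 11 TIMM genes, TIMM22 was higher and TIMM17B lower in SP. TIMM22 forms the channel that inserts carriers into the inner membrane. It had 43.3, 32.04, 36.0 and 33.0 CPM in SP and 18.4, 22.8, 26.7 and 19.5 CPM in NSP. Every SP library was above every NSP library, with a log2 fold change of 0.74 ± 0.25 (adjusted p = 0.0455). The adjusted p was above 0.05, at up to 0.217, without any single library other than NSP library 3, and at up to 0.120 in the median-ratio, upper-quartile, unfiltered and limma-trend fits. TIMM17B, a core part of the TIM23 complex, had 39.6, 31.6, 31.8 and 59.4 CPM in SP and 71.1, 57.4, 63.6 and 76.4 CPM in NSP. SP library 4 overlapped with NSP and the other SP libraries lay below it. The log2 fold change was -0.78 ± 0.26 (adjusted p = 0.0399), and the adjusted p was above 0.05, at up to 0.113, without any single library other than SP library 4.

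The other members that belong to the TIM23 complex did not pass. TIMM44 was not among the members. TIMM17A, the paralogue of TIMM17B and the TIMM gene with the highest level, also per kb of exon, had 110.9, 124.6, 181.9 and 243.6 CPM in SP and 135, 139.1, 185.5 and 141 CPM in NSP (0.08 ± 0.28). TIMM50, the receptor of the complex, was at 39.3, 43.6, 43.7 and 70.9 CPM in SP and at 44.3 to 50.9 CPM in NSP (-0.03 ± 0.24). TIMM21, which links the complex to TOM and to the respiratory chain, was at 55.6, 55.6, 57.2 and 35.7 CPM in SP and at 35.0 to 41.0 CPM in NSP (0.43 ± 0.24; adjusted p = 0.190). In both genes SP library 4 lay far from the other SP libraries. TIMM23B had 89.1, 61.2, 99.2 and 69.1 CPM in SP and 89.7, 104, 92.3 and 87.9 CPM in NSP (-0.25 ± 0.22). Its reads may be shared with a near-identical copy, TIMM23, if the rabbit has one. TIMM23 was not among the members, and such sharing was not tested.

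None of the small TIMM chaperones of the space between the membranes passed the threshold with all libraries and the scaling used here. TIMM13 was not among the members. TIMM8A, the gene mutated in human deafness-dystonia syndrome, had 12.1, 8.16, 16.0 and 17.5 CPM in SP and 17.9, 21.1, 20.5 and 21.6 CPM in NSP. Its groups did not overlap, with a log2 fold change of -0.66 ± 0.31 (adjusted p = 0.134). It was called without SP library 4 (-0.92; adjusted p = 0.0317) and with quality weights (-0.89; adjusted p = 0.0344). Its paralogue TIMM8B had 32.8, 39.9, 46.7 and 47.5 CPM in SP and 31.98, 31.1, 34.9 and 34.7 CPM in NSP (0.31 ± 0.23). TIMM9 (0.52 ± 0.37), TIMM10 (-0.10 ± 0.33) and TIMM10B (-0.26 ± 0.32) had intervals that included 0.

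Ratios between paralogues, which the scaling of a library does not touch, were compared for 5 pairs per exon length. TIMM8A over TIMM8B was 0.592, 0.328, 0.550 and 0.590 in SP and 0.895, 1.09, 0.941 and 0.998 in NSP. Every SP library was below every NSP library, by 0.97 on the log2 scale on average, and a two-sided exact permutation test gave p = 0.029, the smallest that 4 against 4 libraries allow, and 0.14 after Benjamini-Hochberg adjustment over the 5 pairs. TIMM17A over TIMM17B was 1.85, 2.61, 3.79 and 2.72 in SP and 1.26, 1.60, 1.93 and 1.22 in NSP, a difference of 0.85 on the log2 scale (exact permutation p = 0.057, adjusted 0.14). MRPS18A over MRPS18B differed by 0.50 (exact permutation p = 0.17), TIMM10 over TIMM10B by 0.16 (exact permutation p = 0.57) and TOMM20 over TOMM20L by 0.96 (exact permutation p = 0.46) on the log2 scale. The last difference rested on SP library 1, where TOMM20L had 2 reads: it was 0.06 without that library and up to 1.47 without SP library 2. MRPS18A over MRPS18B ran between 0.29 (without SP library 2) and 0.67 (without SP library 1). None of the 5 pairs had an adjusted p of at most 0.05. Where only 1 pair reaches the smallest exact permutation p of 0.029, adjustment over 5 pairs gives 0.14. A single pair therefore could not pass with 4 against 4 libraries, and no conclusion is drawn from the adjusted values.

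**Figure D3:**
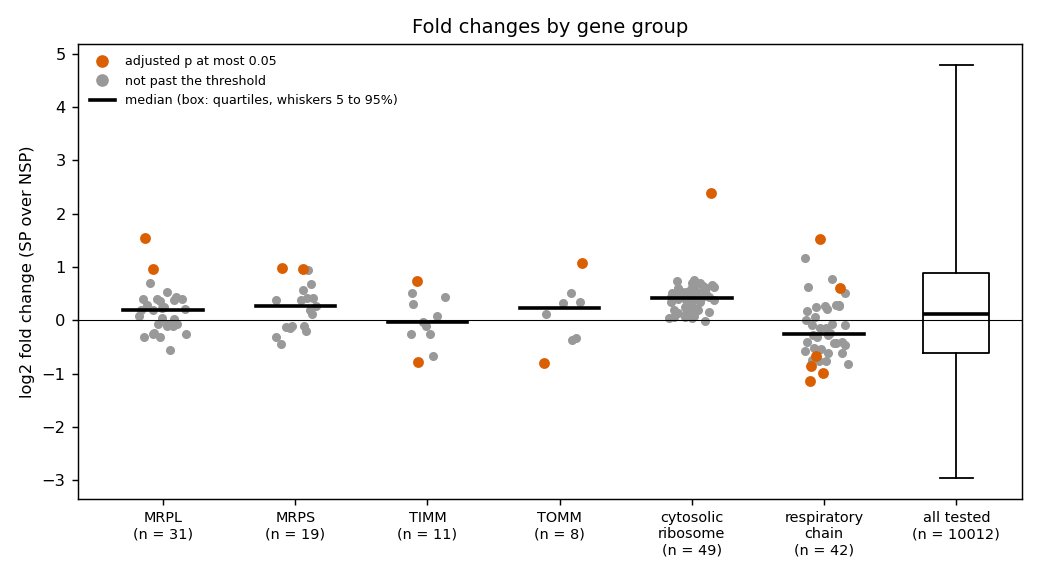
Log2 fold change (SP over NSP) of every tested gene of the 4 name series, of cytosolic ribosomal proteins and of nuclear-encoded respiratory chain names. A bar marks each median and a box shows all tested genes. The medians are 0.19 (MRPL), 0.28 (MRPS), -0.03 (TIMM), 0.22 (TOMM), 0.43 (cytosolic ribosome), -0.26 (respiratory chain) and 0.12 (all).

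The name series had medians of 0.19 (MRPL), 0.28 (MRPS), -0.03 (TIMM) and 0.22 (TOMM) on the log2 scale. Cytosolic ribosomal proteins, the counterparts that translate nuclear messages, had a median of 0.43 over 49 tested genes, of which 1 was higher (RPS29, 2.38 ± 0.45; adjusted p = 0.00306) and 0 lower. Limma-trend likewise gave 1 higher and 0 lower, and 4 and 0 of them had an unadjusted p under 0.05. Genes named for the nuclear-encoded respiratory chain, which takes up the products of mitochondrial translation, had a median of -0.26 over 42 tested genes. Of these, 2 were higher (NDUFAF7 and ATP5F1) and 4 lower (NDUFB3, NDUFB9, NDUFC1 and ATP5S). The share called was 2.04% of the cytosolic ribosomal proteins and 14.3% of the respiratory chain set, beside 30.7% of all tested genes. The respiratory chain set was taken by name, so it can hold assembly factors such as NDUFAF7 beside subunits. Its counts moved with single libraries: 3 higher and 10 lower without SP library 4, 1 and 2 without SP library 1, 1 and 3 without NSP library 1 or 2, and 1 and 1 without any 1 of SP libraries 2 and 3 and NSP libraries 3 and 4. Upper-quartile factors gave 1 higher and 9 lower and quality weights 4 and 8. The share of all tested genes called also moved, between 22.1% (without NSP library 4) and 37.5% (without SP library 4). It was 30.6% with upper-quartile factors and 39.4% with quality weights. The median of the respiratory chain set ran between -0.41 (without SP library 4 or NSP library 1) and -0.16 (without NSP library 3), and was -0.45 with upper-quartile factors. The median of the cytosolic ribosomal proteins was 0.21 without NSP library 3, 0.22 without SP library 4, 0.28 without SP library 3 and 0.58 at most (without SP library 1), and 0.24 with upper-quartile factors or 0.26 with quality weights. The difference between these groups and the mitochondrial ribosome and import genes was not tested.

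Genes that work with the mitochondrial ribosome under other names were counted from lists. Over all tested genes, 30.7% were called, 17.7% higher and 13.0% lower in SP. Ribosome proteins named DAP3, PTCD3 and CHCHD1 had log2 fold changes of 0.43, 0.47 and 0.86, and CHCHD1 came closest to the threshold (adjusted p = 0.0553). Of the 3, 0 were called by limma-voom and by limma-trend, and 1 had an unadjusted p under 0.05; 1 was called without SP library 4. Assembly factors gave 1 higher and 1 lower gene of 14 tested, or 14.3%. ERAL1, which chaperones the RNA of the small subunit, had 6.74, 8.89, 11.7 and 5.16 CPM in SP and 23.2, 20.6, 24.2 and 29.5 CPM in NSP. Every SP library was below every NSP library, and the log2 fold change of -1.61 ± 0.33 (adjusted p = 0.00507) was called in all 15 alternative fits. MTERFD1, also known as MTERF3, was higher in SP (1.53 ± 0.41; adjusted p = 0.0172), and its adjusted p was 0.0884 without NSP library 1. The list had 2 higher genes without SP library 4 and with quality weights. In those fits 37.5% and 39.4% of all tested genes were called. Mitochondrial translation factors gave 0 calls among 9 tested by limma-voom and by limma-trend, with 1 at an unadjusted p under 0.05, and the elongation factor TUFM was at 0.48 ± 0.28.

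Import partners outside the TIMM and TOMM names gave 0 higher and 5 lower genes of 24 tested. That was 20.8%, beside 30.7% of all tested genes, of which 17.7% were higher and 13.0% lower in SP. Of the partners, 1 and 7 had an unadjusted p under 0.05, and limma-trend also gave 0 and 5. IMMP2L, a peptidase of the inner membrane that trims imported precursors, had 10.9, 11.6, 10.3 and 11.7 CPM in SP and 47.1, 67.3, 56.1 and 53.8 CPM in NSP. The groups lay far apart and the SP libraries were nearly equal, with a log2 fold change of -2.32 ± 0.27 (adjusted p = 0.000297). MTX3, a metaxin of the outer membrane sorting machinery, was at 5.98, 14.2, 4.19 and 2.65 CPM in SP and at 18.1, 27.6, 31.8 and 26.6 CPM in NSP (-2.13 ± 0.47; adjusted p = 0.00683). CHCHD6, a subunit of the MICOS complex that shapes the cristae, was at 10.3, 23.1, 13.7 and 47.1 CPM in SP and at 59.7, 60.5, 55.5 and 80.7 CPM in NSP (-1.72 ± 0.40; adjusted p = 0.00862). All 3 were called in each of the 15 alternative fits. The other 2 lower genes, named after their values were seen, were MTX1 (-0.85; adjusted p = 0.0307) and MIPEP (-1.08; adjusted p = 0.0475), and neither was called in every fit that left out a library. The counts were 0 higher and 3 lower without SP library 3, NSP library 3 or NSP library 4, and 2 higher and 7 lower without SP library 4. They were 0 and 7 with median-ratio or upper-quartile factors and 1 and 6 with quality weights. The share of all tested genes called moved as well. It was 23.9% without SP library 3, 26.1% without NSP library 3, 22.1% without NSP library 4 and 37.5% without SP library 4. With median-ratio factors, upper-quartile factors and quality weights it was 30.5%, 30.6% and 39.4%.

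Further lists concern the genome, the tRNAs and the supply of mitochondria. The share called was 7.14% for genome expression, 11.1% for biogenesis regulators and 20% for aminoacyl-tRNA synthetases, beside 30.7% of all tested genes. Of all tested genes, 37.5% were called without SP library 4, 39.4% with quality weights and 30.6% with upper-quartile factors. Mitochondrial genome expression gave 1 higher and 0 lower of 14 tested, with 2 and 0 at an unadjusted p under 0.05 and 1 and 0 by limma-trend; 2 were higher without SP library 4 and with quality weights. The gene was MTPAP, the mitochondrial poly(A) polymerase, at 44.4, 52.8, 68.6 and 54.7 CPM in SP and 25.6, 18.5, 14.1 and 25.7 CPM in NSP (1.42 ± 0.28; adjusted p = 0.00392). Regulators of mitochondrial biogenesis gave 1 higher and 0 lower of 9 tested, with 2 and 0 at an unadjusted p under 0.05 and 1 and 0 by limma-trend; 1 was lower without SP library 4 and with upper-quartile factors. The gene was NRF1, a transcription factor of nuclear genes for mitochondrial proteins, at 49.6, 51.1, 60.0 and 74.5 CPM in SP and 27.5, 17.3, 6.68 and 33.3 CPM in NSP (1.66 ± 0.43; adjusted p = 0.0142). Every SP library was above every NSP library in both genes, and both were called in all 15 alternative fits. Mitochondrial aminoacyl-tRNA synthetases, which charge the tRNAs, gave 1 higher and 2 lower of 15 tested: WARS2 was at 1.47 ± 0.45 (adjusted p = 0.0321), VARS2 at -1.14 ± 0.25 (adjusted p = 0.00737) and NARS2 at -0.93 ± 0.30 (adjusted p = 0.0405). WARS2 was not called without SP library 1 or 4 or any 1 NSP library, with an adjusted p of up to 0.099, nor with upper-quartile scaling or quality weights. NARS2 was not called without SP library 1 or 2 or NSP library 2, 3 or 4, with an adjusted p of up to 0.0959, nor with library totals alone or without the filter.

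Across the 69 tested members the log2 fold change was larger for genes with longer exons. The Spearman correlation between the log2 fold change and the deposited exon length was 0.50 and Pearson's r on log2 length was 0.46, beside 0.04 and 0.00 over all 10012 tested genes. All points come from the same 8 libraries, so they are not independent. The 23 shortest members (225 to 912 bases) had a median of -0.10 with 1 gene higher and 2 lower, the middle 23 (929 to 1280 bases) had 0.19 with 1 higher and 0 lower, and the 23 longest (1295 to 6716 bases) had 0.40 with 4 higher and 0 lower. All tested genes within those length ranges had medians of 0.09, 0.06 and 0.13. Of all tested genes of any length, 30.7% were called, 17.7% higher and 13.0% lower in SP. The share called within each length range was not computed. The Spearman correlation was 0.67 within MRPL (n = 31), 0.21 within MRPS (n = 19), 0.45 within TIMM (n = 11) and 0.81 within TOMM (n = 8). It was -0.05 in cytosolic ribosomal proteins (n = 49) and 0.26 in the respiratory chain (n = 42). Over the 15 alternative fits the Spearman correlation among the members lay between 0.41 and 0.54.

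**Figure D4:**
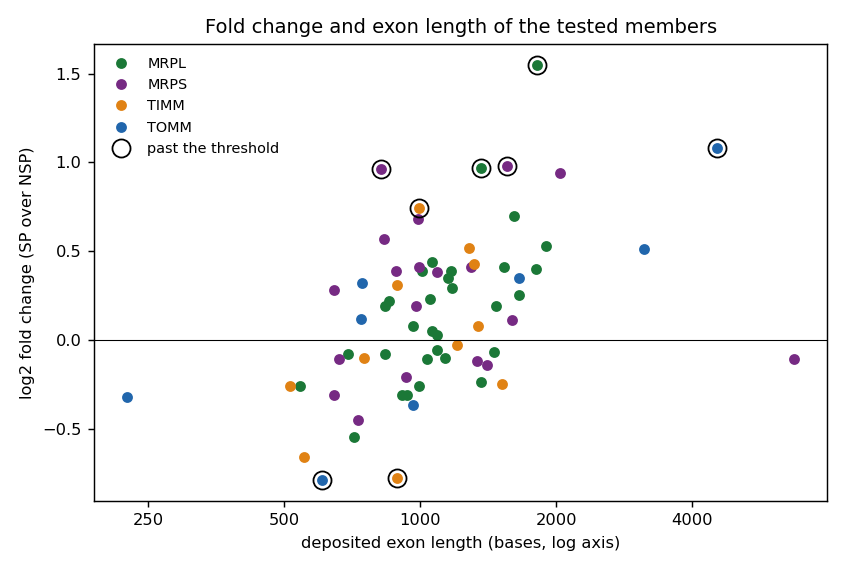
Log2 fold change (SP over NSP) of each of the 69 tested members against its deposited exon length in bases on a log axis, coloured by name series, with rings around the 8 called genes. Genes of 225 to 912 bases have a median of -0.10 and genes of 1295 to 6716 bases a median of 0.40.

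Within the groups the members varied less than genes in general. The median SD of log2 CPM among the 4 libraries was 0.41 in SP and 0.24 in NSP over the members, beside 0.59 and 0.37 over all tested genes. SP library 4 was the highest of its group in 32 members and the lowest in 19, so it held an end of the group in 73.9% of members, beside 64.7% of all tested genes. NSP library 3 held an end in 72.5% of members, beside 67% of all. Members that were high in SP library 4 relative to its group tended to be high in NSP library 4 (Pearson r = 0.61 over 69 members) and low in NSP library 3 (r = -0.54), beside r = 0.23 and r = -0.19 over all tested genes. SP library 1 and NSP library 3 deviated together (r = 0.55 over the members, 0.10 over all). The Spearman values over the members were weaker, at 0.42, -0.42 and 0.35. These pairs are among the largest of all pairs of an SP and an NSP library. SP library 1 also had r = -0.54 with NSP library 4 and -0.51 with NSP library 1 over the members. These correlations run across genes of the same libraries, and deviations within 1 group sum to 0, so they are given as a description without a test.

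**Figure D5:**
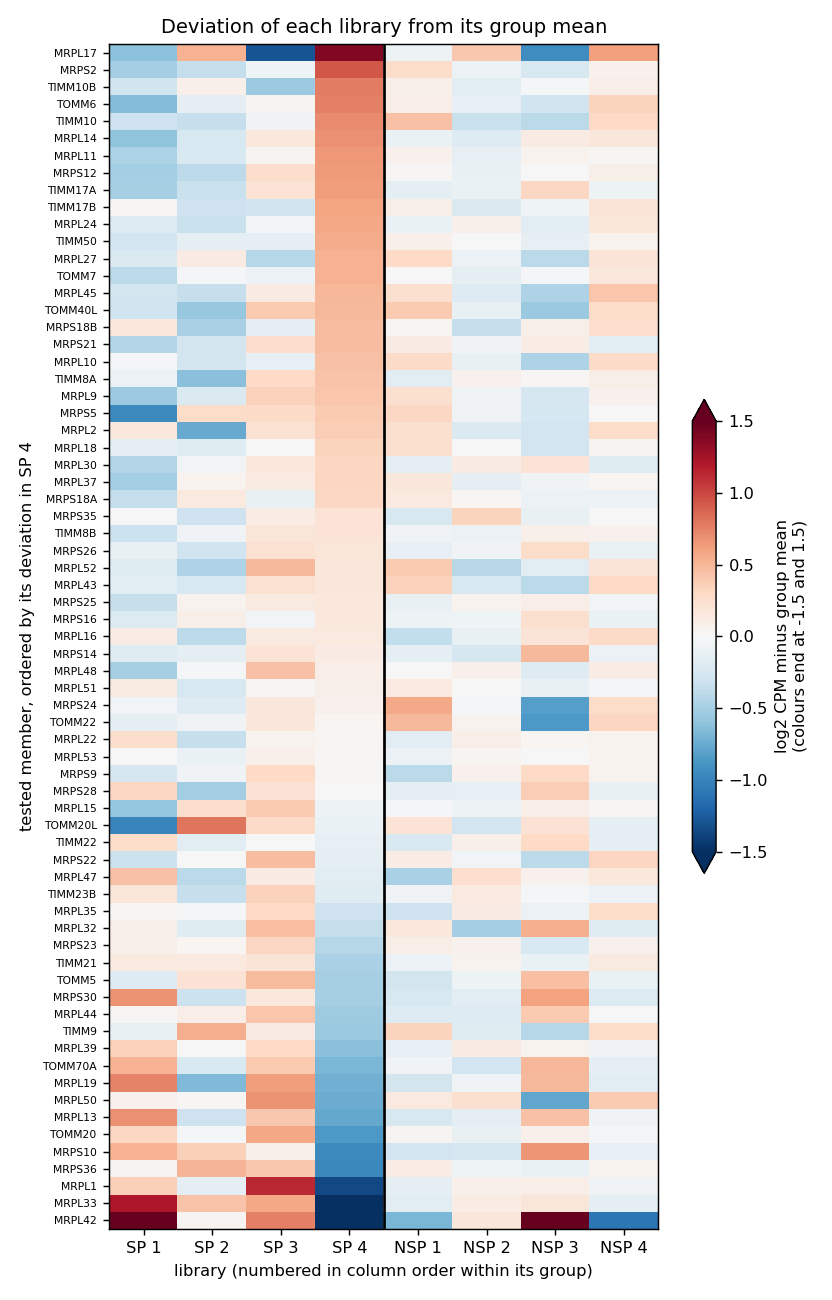
Deviation of log2 CPM from the mean of its group for each of the 69 tested members (rows, ordered by SP library 4) in each library (columns, SP left and NSP right), with red above and blue below the group mean. Rows that are red in SP library 4 are often blue in NSP library 3 (Pearson r = -0.54, Spearman -0.42).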

How the data were processed

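The deposited table is fixed-width text of 163 fields of 8 characters in 6 stacked blocks. Neighbouring fields touch, so it was read by character position. Per the file headers the columns show group only. The fields used hold whole numbers and were taken as counts of exon reads deposited by the authors, without normalization; the deposited group means were recomputed from them to within 0.05. Another 143 per-library fields were not used. Aligner, genome build, annotation and strand, not given in the sources used here, are unknown, so reads of overlapping genes cannot be told apart. Gene names were used for 10916 of 20922 entries; the other 10006 held 10.1% of reads and stayed in the fit. Of the 71 member names, 66 are symbols in a RefSeq gene table (mOryCun1.1, used for names only).

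TMM factors, trimming 30% of log ratios and 5% of levels, set the library scale. Genes with at least 0.508 CPM (10 reads in the median library) in 4 libraries and 15 reads in all were tested with limma-voom (limma 3.58.1, R 4.3.3; offset 0.5; group only; two-sided; Benjamini-Hochberg adjusted p of 0.05). A quasi-likelihood count test was not run. The scripts were tested on simulated data. Tables were handled in pandas 2.3.3 with NumPy 2.4.6 under Python 3.11.15, and plots drawn in matplotlib 3.10.9. The labels mention no molecular identifiers, so reads need not be independent molecules.

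Other settings tried were upper-quartile or median-ratio factors, unscaled library totals, no filter, a minimum of 10 reads in 4 libraries, limma-trend (pseudocount 0.5 CPM), voom quality weights and leaving out each library in turn (3 libraries at the minimum). The paralogue ratios were added after seeing the data. Per-library levels are given for up to 3 called members per name series and direction with the smallest p, for the most abundant member of each series and for paralogue pairs, and for other members where groups did not overlap or libraries stood apart, chosen after their values were seen. Of each list up to 3 called genes per direction were named. The members and lists were chosen with earlier results of these data known.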

Additional observations from a re-analysis of the deposited data

Results flagged for a closer look

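In 138 groups of 4 libraries (69 members in SP and in NSP), 11 held a library far from the other 3 by Dixon's criterion at the 95% level. In independent, normally distributed groups about 1 in 20, or 6.9, would be marked by chance. The members share the same libraries, and the rate over all tested genes was not computed. NSP library 3 was the one that stood apart in 7 of them. It also held an end of its group in 67% of all tested genes. In this library MRPS10 was at 28.5 CPM (others 14.4 to 16.3), MRPS16 at 76.8 (60.8 to 62.4), MRPS26 at 37.5 (28.4 to 29.8), MRPS28 at 23.2 (16.3 to 16.5), MRPS30 at 22.6 (12.3 to 13.1) and TIMM17A at 185.5 (135 to 141), all above the rest of NSP, and MRPS23 at 28.1 (34.3 to 35.4), below it. SP library 4 stood apart in TIMM50, at 70.9 CPM (others 39.3 to 43.7), and in TIMM21, at 35.7 CPM (55.6 to 57.2). MRPS5 was at 12.1 CPM in SP library 1 (others 29.04 to 31.6), and MRPL16 was at 16.4 CPM in SP library 2 (others 23.5 to 24.3).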

How the results depend on the processing

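No paired analysis was possible because the table's columns carry no replicate numbers. Of the 15 alternatives, upper-quartile scaling moved the count of members higher in SP to 0 and their median log2 fold change to 0.00, and it moved the median of all tested genes to -0.06, beside 0.00 with median-ratio factors and 0.16 with library totals alone. Leaving out 1 library at a time gave 0 to 7 members higher and 0 to 6 lower in SP, with a median of 0.00 to 0.20. Over all tested genes these fits gave 1204 to 2099 higher and 970 to 1752 lower. The 8 called members each kept the call in 1 (TIMM17B and TIMM22) to 4 (MRPS22) of these 8 fits. Only genes called with all libraries and the scaling used here could lose a call. The counts that follow cover 47 named genes and leave out other members, which can also gain a call or change sign. Without SP library 4, 7 members were higher and 6 lower, and 6 of these were also called with all libraries. Of 705 recomputed values of the 47 genes, 582 kept direction and side of the threshold, 83 lost and 11 gained the call, and 29 changed sign, all of them in genes that were not called. The changed log2 fold changes were -0.04 for TIMM17A with median-ratio factors; -0.11 for MRPL42, -0.11 for TIMM17A and -0.06 for TOMM5 with upper-quartile factors; -0.01 for MRPL42 and 0.02 for TIMM50 with library totals alone; and -0.06 for MRPL17, 0.13 for MRPL33 and 0.14 for TOMM20L with voom quality weights. Leaving out 1 library gave ranges of -0.31 to 0.72 (MRPL17), -0.67 to 0.32 (MRPL33), -1.04 to 1.71 (MRPL42), -0.39 to 0.05 (MRPS18B), -0.29 to 0.01 (MRPS25), -0.45 to 0.01 (TIMM10), -0.26 to 0.25 (TIMM17A), -0.33 to 0.07 (TIMM50), -0.87 to 0.38 (TOMM20L) and -0.12 to 0.27 (TOMM5), and -0.01 to 0.30 for the log2 ratio of TIMM10 over TIMM10B. The cause of these shifts was not tested. Depth limits MRPL57 and MRPS6, at 0 to 5 and 0 to 3 reads a library, and TOMM20L.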
